A study of Danio rerio with 18 samples.

Results

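The genes described here are irg1l, the zebrafish gene of an itaconate-producing enzyme, and 4 genes widely used as macrophage markers in zebrafish, namely mpeg1.1, mfap4, csf1ra and marco. They were chosen by name. The 5 names matched 11 of the 31624 genes in the table of counts, because 6 rows carry the name mfap4 and 2 were taken for mpeg1.1. Whole larvae of the AB strain were measured by RNA-seq in 18 libraries, each from a pool of 5 larvae. There were 6 groups of 3 libraries, namely larvae challenged with LPS and their controls at 3 combinations of embryonic incubation and challenge temperature. The combinations were 24 °C throughout (24 × 24 °C), a warmer challenge at 32 °C after incubation at 24 °C (24 × 32 °C), and the reverse, from 32 °C down to 24 °C (32 × 24 °C). LPS (lipopolysaccharide) sits on the surface of Gram-negative bacteria and is recognised by immune cells. It came from Pseudomonas aeruginosa and was added to the water for 24 h. The labels give its dose as 10 mg/L, whereas the methods give a lower one, and controls received phosphate-buffered saline instead. Where the temperature changed, the change started at the first-feeding stage. Larvae were not fed, and those incubated at 32 °C reached this stage earlier and so were fewer hours old. The LPS pools held survivors of a challenge whose mortality differed among the combinations. The labels do not say which spawning a pool came from, so p-values measure the spread between pools.

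Macrophages engulf bacteria and release inflammatory signals, and in zebrafish larvae they act before adaptive immunity has matured. When activated, they make the mitochondrial enzyme cis-aconitate decarboxylase (IRG1 or ACOD1 in mammals). It turns cis-aconitate, an intermediate of the tricarboxylic acid cycle, into itaconate, which inhibits succinate dehydrogenase and a bacterial enzyme of the glyoxylate shunt. In zebrafish larvae, irg1l has been studied in macrophages, where it was tied to fatty acid oxidation, and in epidermal keratinocytes. The other genes have different roles. mpeg1.1 encodes a perforin-like protein that attacks engulfed bacteria, csf1ra the receptor for the growth factors Csf1 and Il34, which is also used by yellow pigment cells (xanthophores), and marco a scavenger receptor that binds bacteria. mfap4 encodes a secreted protein with a fibrinogen-like domain and has many near-copies in zebrafish.

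Values are given as CPM, the count of a gene scaled to a common library size with TMM factors. One count was worth 0.118 to 0.581 CPM, depending on the library, and library totals ran from 1868228 to 8261920. Totals were 2088918 to 8261920 in the 24 × 24 °C larvae and 1868228 to 3257523 in the others, so genes with few counts were measured less precisely in the warmer groups. The markers of other tissues fixed for a whole larva were present in every library, at 17100 to 34300 CPM for actc1b (muscle), 2020 to 9200 CPM for krt4 (skin), 56.3 to 1650 CPM for prss1 (exocrine pancreas) and 319 to 961 CPM for crygm2d1 (lens). No row was named hbbe1.1, the marker listed for red blood cells. In libraries of whole larvae, fewer cells of a type and less RNA per cell cannot be told apart. The 32 × 24 °C libraries numbered 1, control and LPS, stood low in several blood cell lists, and their values are given with the marker sums.

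irg1l ranged 26.3-fold between its lowest and its highest library, with 29 to 1784 counts. In the 24 × 32 °C controls, the 3 libraries held 14.6, 23.8 and 19.7 CPM. In the LPS-challenged larvae of the same combination, they held 162, 116 and 219 CPM. All 3 libraries with LPS thus lay above all 3 controls, and the 24 × 32 °C controls had the lowest mean of the 6 groups.
In the 24 × 24 °C controls, the libraries held 169, 37.1 and 210 CPM, and in the larvae given LPS 78.7, 118 and 102 CPM. Those ranges overlapped, and the control numbered 2 held less than any of the 3 libraries with LPS.
In the 32 × 24 °C larvae, the controls held 8.31, 111 and 66.4 CPM and the LPS libraries 28.4, 88.2 and 43.8 CPM. The libraries numbered 1 were the lowest of their groups there, in control and LPS larvae alike, and the ranges overlapped.

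**Figure D1:**
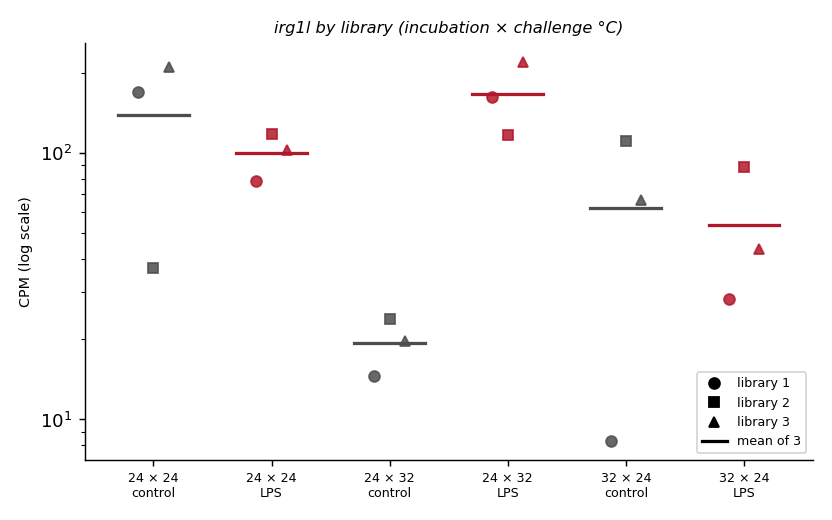
irg1l in each of the 18 libraries, in CPM on a log scale, with control larvae in grey, LPS-challenged larvae in red and a bar at the mean of 3 libraries. The 3 controls at 24 × 32 °C sit between 14.6 and 23.8 CPM, below the 3 LPS libraries of that combination at 116 to 219 CPM, whereas LPS and control libraries overlap at the other combinations.

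Ordered by their means, the groups ran from the 24 × 32 °C LPS larvae (166 ± 51.2 CPM, mean ± SD, n = 3), through the 24 × 24 °C controls (139 ± 90.2, n = 3), the 24 × 24 °C LPS larvae (99.6 ± 19.8, n = 3), the 32 × 24 °C controls (61.9 ± 51.5, n = 3) and the 32 × 24 °C LPS larvae (53.4 ± 31.1, n = 3), to the 24 × 32 °C controls (19.3 ± 4.63, n = 3). Each neighbour in this order overlapped the next in range, except that the 24 × 32 °C controls lay below every library of the 32 × 24 °C LPS group. Within groups, irg1l varied more than nearly all genes. Its biological coefficient of variation was 0.615, higher than that of 99.4% of the 15722 genes tested.

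Genes were called when edgeR's quasi-likelihood test over all 18 libraries gave a Benjamini-Hochberg adjusted p under 0.05 and the fold change was at least 1.5. In the LPS comparison at 24 × 32 °C, 1.95% of all tested genes were called. irg1l was not among them, its log2 fold change being 3.10 (8.56-fold, edgeR adjusted p = 0.0820, standard error (SE) 0.84, 95% interval 1.28 to 4.92). The call turned on the tool and the libraries in the fit, with nearly the same fold change. It was called by DESeq2 on the 18 libraries (3.10, adjusted p = 0.00285), by edgeR on the 6 libraries of the comparison (3.10, edgeR adjusted p = 0.000310) and by DESeq2 on those 6 (3.10, adjusted p = 1.31e-25). It was also called by edgeR without the 32 × 24 °C control numbered 1, a library outside the comparison (3.10, edgeR adjusted p = 0.0296). Over all settings tried, the adjusted p ran from 1.31e-25 to 0.214 and the log2 fold change from 2.84 to 3.29.
At 24 × 24 °C, where 0.426% of the tested genes were called, irg1l had a log2 fold change of -0.48 (edgeR adjusted p = 1.0, SE 0.71, 95% interval -2.02 to 1.06). At 32 × 24 °C, with 0.0318% called, it had -0.18 (edgeR adjusted p = 1.0, SE 0.77, 95% interval -1.85 to 1.48). Both intervals reach past 1 on the log2 scale in either direction. Averaged over the 3 combinations, where 2.51% of the tested genes were called, the log2 fold change was 0.81 (edgeR adjusted p = 0.450, SE 0.44, 95% interval -0.15 to 1.78).

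The LPS effect on irg1l at 24 × 32 °C was larger than that at 24 × 24 °C by 3.58 on the log2 scale (SE 1.1, 95% interval 1.2 to 5.96). This difference had an unadjusted edgeR p of 0.00655 and missed the threshold over all genes (edgeR adjusted p = 0.486). Few genes passed it, as 0.00636% of those tested were called. With DESeq2 on the 12 libraries of these 4 groups it was called (3.58, adjusted p = 0.00238).
Between the 32 × 24 °C and 24 × 24 °C combinations the LPS effects differed by 0.30 (edgeR adjusted p = 1.0, SE 1.04, 95% interval -1.97 to 2.57), and 0% of the tested genes were called by edgeR there, with 404 at an unadjusted p under 0.05.

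Between control larvae at 24 × 32 °C and 24 × 24 °C, irg1l had a log2 difference of -2.84 (edgeR adjusted p = 0.0538, SE 0.82, 95% interval -4.63 to -1.05), just outside the threshold that 6.21% of the tested genes passed. All 3 controls at 24 × 32 °C (14.6 to 23.8 CPM) lay below all 3 at 24 × 24 °C (37.1 to 210 CPM). DESeq2 called the difference (-2.84, adjusted p = 0.00337), and so did edgeR without the 24 × 24 °C control numbered 2 (-3.29, edgeR adjusted p = 0.0339) or without the 32 × 24 °C control numbered 1 (-2.84, edgeR adjusted p = 0.0179).
The 24 × 32 °C controls enter this comparison and the LPS comparison alike, so the values of the one are not independent of the other. The LPS-challenged larvae of the same combinations had a log2 difference of 0.74 (edgeR adjusted p = 0.640, SE 0.72), where 3.09% of the tested genes were called. For the 32 × 24 °C against the 24 × 24 °C larvae, the differences were -1.18 (edgeR adjusted p = 0.554, SE 0.74) in the controls, with 0.49% of genes called and a range of -1.94 (without the 32 × 24 °C control numbered 2) to -0.64 (without that numbered 1), and -0.89 (edgeR adjusted p = 0.773, SE 0.75) in the LPS larvae, with 0.254% called.

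In the edgeR fit, none of the 3 member rows that could be tested was called in any of the 10 comparisons. The unadjusted p was under 0.05 for irg1l in 3 comparisons, for mpeg1.1 in 2 and for marco in 0. Of the 15722 genes tested, 2637, 3574 and 1186 were under that p in the 3 of irg1l (LPS at 24 × 32 °C, the controls, and the challenge difference in LPS effects), and 1993 and 3038 in those of mpeg1.1. DESeq2 on the 18 libraries called irg1l in 2 of the 10.

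The genes whose levels most resembled those of irg1l were largely its neighbours on the chromosome. Among 13245 tested genes with a mean of at least 5 CPM, the highest Pearson correlation of log2 CPM with irg1l over the 18 libraries was that of si:ch211-153b23.3 (r = 0.984), followed by si:ch211-153b23.5 (0.962), zgc:162964 (0.952), si:ch211-153b23.4 (0.951) and zgc:174917 (0.917). The median over these genes was -0.00925, and 6 reached 0.9. The libraries share their depth and their groups across genes, so these are descriptions of likeness, given without a test.
In RefSeq's order of protein-coding genes on chromosome 14, si:ch211-153b23.3, si:ch211-153b23.4, si:ch211-153b23.5 and zgc:174917 follow irg1l directly, in steps 1 to 4. The gene at step 5, si:ch211-153b23.7, did not pass the filter. On the other side, glod5, a glyoxalase-domain gene next to irg1l, had r = 0.808, which ranked 32 of the 13245. Further out, rlim had an r of -0.159. zgc:162964 is not among the 5 genes on either side.
The likeness held when group means were taken away, with within-group r of 0.972 for si:ch211-153b23.3, 0.956 for si:ch211-153b23.4, 0.955 for si:ch211-153b23.5, 0.954 for zgc:162964 and 0.857 for zgc:174917. With group means kept, it also held without the 2 libraries farthest from the median of irg1l (r of 0.874 to 0.985). Those were the 32 × 24 °C and 24 × 32 °C controls numbered 1. The study's methods do not state whether the libraries keep strand, and the setting of the counting is not given. Whether reads of adjoining genes were separated by strand is therefore not known, and overlap of these genes was not checked.

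**Figure D2:**
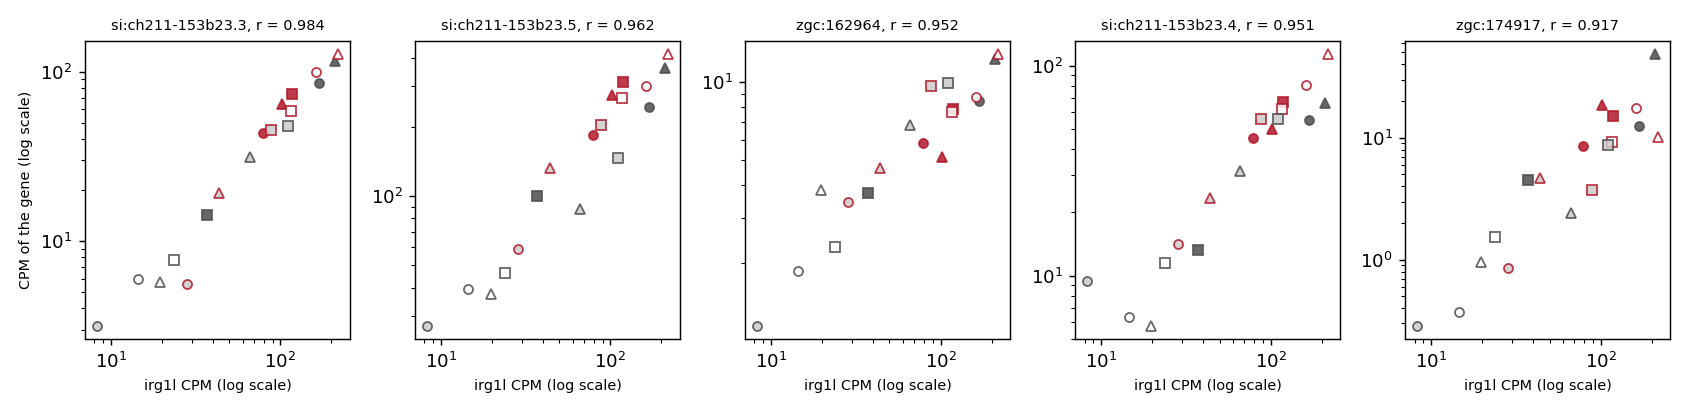
The 5 genes most alike irg1l, each plotted against irg1l in CPM on log scales, with 1 point for each of the 18 libraries (grey outlines for control, red for LPS; filled for 24 × 24 °C, white for 24 × 32 °C, light grey for 32 × 24 °C). The points lie along a rising line in every panel, from r = 0.984 for si:ch211-153b23.3 to 0.917 for zgc:174917.

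Among these genes, the LPS comparison at 24 × 32 °C looked as it did for irg1l, and some were called. All but glod5 were picked by their likeness to irg1l over the same libraries, so a like contrast follows from that choice. glod5 was added after seeing values. Their values are therefore no separate support for those of irg1l. For si:ch211-153b23.5, the controls held 39.6, 46.1 and 37.4 CPM and the LPS libraries 302, 267 and 414 CPM, without overlap. It was up-regulated, with a log2 fold change of 3.0 (edgeR adjusted p = 0.0306, SE 0.63), a call that was lost under 6 of 25 alternatives. It was lost without any 1 of the 3 controls, or without the LPS library numbered 1 or 3, at 24 × 32 °C (adjusted p of up to 0.120). A setting other than leaving out 1 library lost it too (adjusted p of up to 0.0533).
si:ch211-153b23.4 held 6.34, 11.5 and 5.76 CPM in the controls and 80.8, 61.9 and 113 CPM with LPS. It was up-regulated by 3.41 on the log2 scale (edgeR adjusted p = 0.0468, SE 0.79), a call that was lost without the low-count filter (3.40, edgeR adjusted p = 0.0663) and under 16 of the 25 alternatives in all, among them each of the 6 libraries of the comparison left out (adjusted p of up to 0.151). glod5 was up-regulated as well, by 1.42 (edgeR adjusted p = 0.0402, SE 0.36), and lost its call under 12 of 25 alternatives (adjusted p of up to 0.139).
si:ch211-153b23.3 held 5.97, 7.68 and 5.76 CPM in the controls and 99.4, 58.8 and 127 CPM with LPS, with a log2 fold change of 3.86 that was not called (edgeR adjusted p = 0.0807, SE 1.03). The values of zgc:174917 were 3.61 (edgeR adjusted p = 0.194, SE 1.34), and those of zgc:162964 were 1.89 (edgeR adjusted p = 0.137, SE 0.65). In the differences of LPS effects between 24 × 32 °C and 24 × 24 °C, none of these 6 genes was called by edgeR, with log2 differences of 0.97 (glod5) to 4.33 (zgc:174917) and unadjusted p of 0.00476 to 0.0460.
Among controls, si:ch211-153b23.5 was lower at 24 × 32 °C than at 24 × 24 °C by a log2 difference of -2.52 (edgeR adjusted p = 0.0278, SE 0.62) and zgc:174917 by -4.50 (edgeR adjusted p = 0.0355, SE 1.19). Without the 24 × 24 °C control numbered 3 they were not called (-2.07 and -3.08, edgeR adjusted p of 0.11 and 0.0949), nor without any 1 of the 24 × 32 °C controls. In all, these calls were lost under 7 and 6 of 25 alternatives, also under settings other than leaving out 1 library (adjusted p of up to 0.0619 and 0.204).

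The table's other cis-aconitate decarboxylase gene, named ACOD1, held 19.8 to 41.1 CPM over the 18 libraries, a narrow range beside that of irg1l. Its log2 fold changes with LPS were 0.04 at 24 × 24 °C, -0.25 at 24 × 32 °C and 0.22 at 32 × 24 °C, with SEs of 0.17 to 0.19, and none was called (edgeR adjusted p of 0.545 to 1.0). Their 95% intervals lay between -0.65 and 0.60. Its r with irg1l over the 18 libraries was -0.0293.

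mpeg1.1 was read at 8 to 39 counts per library. The name belongs to a tandem array, and the table gives the base name MPEG1 to the row used here. It was taken for mpeg1.1 because another row is mpeg1.2 by the study's gene tables and the remaining one (ENSDARG00000078569) had no count in any library. It could be another copy, mpeg1.3.
The 24 × 24 °C controls held 3.27, 4.47 and 4.58 CPM and the LPS larvae 2.97, 3.6 and 4.1 CPM. At 24 × 32 °C, the controls held 4.85, 4.99 and 6.23 CPM and the LPS larvae 5.81, 8.46 and 4.41 CPM. The 32 × 24 °C values were 4.01, 6.84 and 10.1 CPM in controls and 4.30, 4.45 and 8.50 CPM with LPS.
LPS and control ranges overlapped at every combination, while the 24 × 24 °C libraries were the lowest group pair. In the order of means, the only neighbours without overlap were the 24 × 32 °C controls (5.36 ± 0.76 CPM, n = 3) and the 24 × 24 °C controls (4.1 ± 0.73 CPM, n = 3). The log2 fold changes with LPS were -0.27 (SE 0.35), 0.24 (SE 0.38) and -0.25 (SE 0.37) at 24 × 24 °C, 24 × 32 °C and 32 × 24 °C, with edgeR adjusted p of 0.802 to 1.0. Their 95% intervals lay between -1.01 and 1.04. Among controls, mpeg1.1 was higher at 32 × 24 °C than at 24 × 24 °C by 0.71 (edgeR adjusted p = 0.391, SE 0.34), and among LPS larvae higher at 24 × 32 °C than at 24 × 24 °C by 0.87 (edgeR adjusted p = 0.208). Neither was called. The 3 genes most alike over the 18 libraries were cspg4ba (r = 0.808), CR352263.1 (0.773) and an unnamed gene, ENSDARG00000100664 (0.769).

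marco was read at 6 to 36 counts per library. In the 24 × 24 °C controls it held 4.43, 2.98 and 3.88 CPM, and with LPS 5.09, 4.97 and 7.70 CPM. Here all 3 LPS libraries lay above all 3 controls.
At 24 × 32 °C the controls held 2.24, 4.22 and 5.28 CPM and the LPS larvae 4.07, 3.84 and 5.29 CPM. At 32 × 24 °C they held 1.72, 3.04 and 4.02 CPM in controls and 3.44, 3.33 and 4.68 CPM with LPS. In these combinations the ranges overlapped.
The log2 fold changes were 0.59 (edgeR adjusted p = 0.840, SE 0.32, 95% interval -0.08 to 1.25) at 24 × 24 °C, 0.20 (edgeR adjusted p = 0.852, SE 0.40) at 24 × 32 °C and 0.42 (edgeR adjusted p = 1.0, SE 0.41) at 32 × 24 °C. Averaged over the combinations, the change was 0.40 (edgeR adjusted p = 0.435, SE 0.22). None was called. All neighbours in the order of the groups overlapped, from the 24 × 24 °C LPS larvae (5.92 ± 1.55 CPM, n = 3) down to the 32 × 24 °C controls (2.93 ± 1.16 CPM, n = 3). The genes most alike were GNPNAT1 (r = 0.769), tmem176 (0.757) and nfkbiaa (0.755), the gene of an inhibitor of NF-kappa B.

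csf1ra did not pass the filter on low counts, with 1 to 26 counts per library and 113 in all. At 24 × 32 °C, the LPS libraries held 4.07, 9.99 and 0.441 CPM, which include both the highest and nearly the lowest level of the gene. The controls there held 1.87, 0.768 and 1.92 CPM.
At 24 × 24 °C, the controls held 0.962, 0.895 and 1.41 CPM and the LPS larvae 1.13, 2.05 and 3.08 CPM. For 32 × 24 °C, the controls held 1.15, 0.760 and 0.804 CPM and the LPS larvae 0.430, 1.85 and 2.13 CPM. LPS and control ranges overlapped at each combination, and so did all neighbours in the order of the groups.
In a fit without the filter, the log2 fold changes with LPS were 0.73 (SE 0.62), 1.67 (SE 0.67) and 0.65 (SE 0.82) in the order 24 × 24 °C, 24 × 32 °C and 32 × 24 °C, and none was called (edgeR adjusted p of 0.244 to 1.0). The value at 24 × 32 °C moved to 0.45 (edgeR adjusted p = 0.961) without the LPS library numbered 2, which held 26 of the gene's 113 counts, and to 2.22, then called (edgeR adjusted p = 0.0346), without the LPS library numbered 3. Its paralogue csf1rb did not pass the filter either, at 0.581 to 4.42 CPM, with log2 fold changes of -0.44, 0.10 and -0.15 in the same order.

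The 6 rows named mfap4 did not pass the filter. Only 1 of them (ENSDARG00000088745, 160 counts in all) had a count in every library, and the others held 1 to 95 counts in all. Near-copies can share or lose reads in counting, so the rows were also summed, to 6 to 49 counts per library.
The sum was 5.77, 3.28 and 5.76 CPM in the 24 × 24 °C controls and 4.38, 5.99 and 3.08 CPM with LPS. At 24 × 32 °C, it was 3.73, 7.29 and 10.6 CPM in controls and 6.97, 10.4 and 6.62 CPM with LPS. At 32 × 24 °C, it was 2.58, 3.04 and 3.22 CPM in controls and 3.01, 5.56 and 6.80 CPM with LPS. Ranges overlapped at each combination. The log2 fold changes of the sum were -0.07 (SE 0.34), 0.17 (SE 0.38) and 0.80 (SE 0.44), and none was called (edgeR adjusted p of 0.936 to 1.0).

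**Figure D3:**
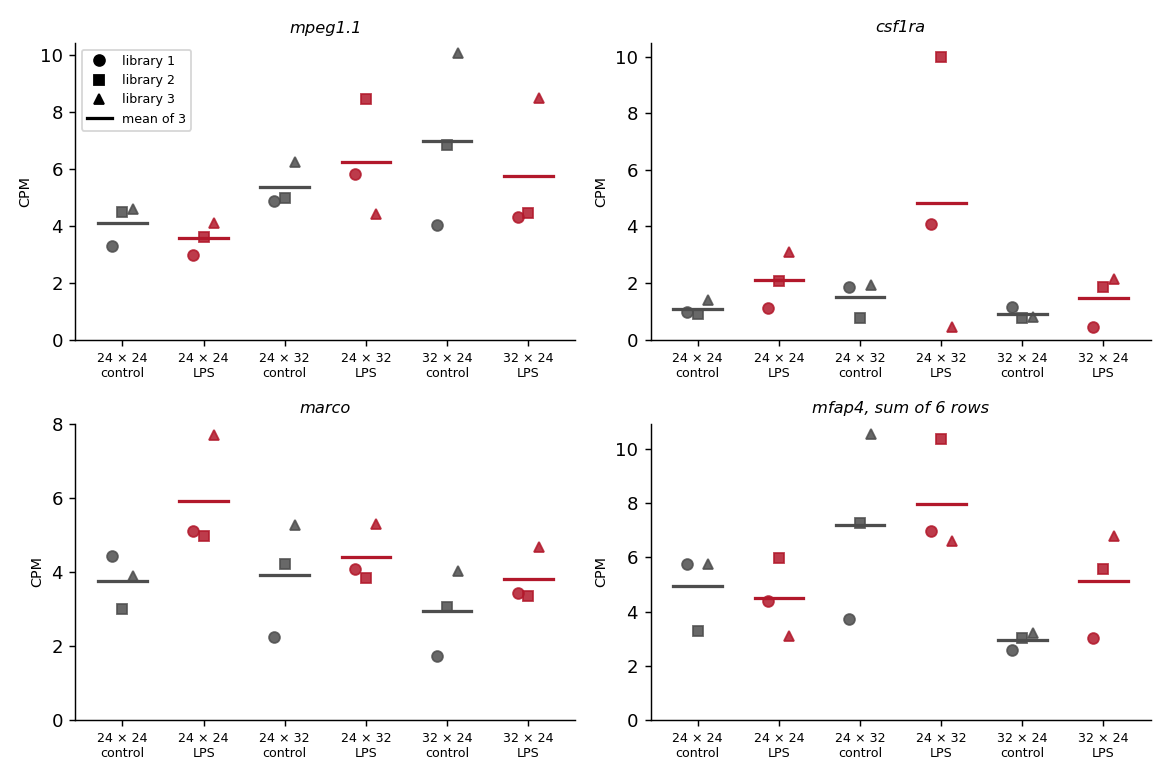
Levels of mpeg1.1, csf1ra, marco and the sum of the 6 mfap4 rows in each of the 18 libraries, in CPM from 0, with control larvae in grey, LPS-challenged larvae in red and a bar at the mean of 3 libraries. Control and LPS points overlap in every pair except marco at 24 × 24 °C, and a single csf1ra library reaches 9.99 CPM.

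Of the numbered copies of mpeg1.1 and mfap4, 3 passed the filter, namely mpeg1.2, mfap4.8 and mfap4.11. mpeg1.2, a tandem copy of mpeg1.1, held 51.8, 19.4 and 52.9 CPM in the 24 × 24 °C controls and 13.4, 13.5 and 6.68 CPM with LPS. At 24 × 32 °C, it held 29.5, 39.5 and 37.4 CPM in controls and 15.7, 14.2 and 15.9 CPM with LPS. The 32 × 24 °C larvae held 3.44, 57.8 and 58.7 CPM in controls and 4.73, 10.0 and 11.5 CPM with LPS.
The LPS libraries lay below all controls at 24 × 24 °C and 24 × 32 °C, while at 32 × 24 °C the control numbered 1 lay below all 3 LPS larvae and the other controls above them. mpeg1.2 was down-regulated on average over the 3 combinations, with a log2 fold change of -1.72 (3.28-fold, edgeR adjusted p = 0.0395, SE 0.42). This call was lost with no low-count filter (-1.72, edgeR adjusted p = 0.0641) and with a replicate block (-1.68, edgeR adjusted p = 0.0669), and under 18 of 24 alternatives in all. Leaving out 1 library moved its adjusted p between 7.88e-05 (without the 32 × 24 °C control numbered 1) and 0.0899. In the single combinations the changes were -1.78 (SE 0.66), -1.22 (SE 0.74) and -2.15 (SE 0.77), and none was called (edgeR adjusted p of 0.437 to 0.768). Without both 32 × 24 °C libraries numbered 1, it was called at 24 × 24 °C (-1.77, edgeR adjusted p = 0.0106) and at 32 × 24 °C (-2.44, edgeR adjusted p = 0.0485). On only the 6 libraries compared it was called at 24 × 32 °C by edgeR (-1.21, edgeR adjusted p = 0.00771) and DESeq2 (-1.22, adjusted p = 0.00818).
With group means taken away, mpeg1.2 had an r of 0.884 with irg1l, rank 19 of 13245 genes. The r over all 18 libraries was 0.265, and 0.098 without the 2 libraries farthest from the median of irg1l. The 32 × 24 °C control numbered 1 and the 24 × 24 °C control numbered 2 were the lowest of their groups in both genes. The within-group r was not computed without them.

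mfap4.8 and mfap4.11 were the copies of mfap4 that passed the filter. mfap4.11 held 1.1, 1.54 and 0.959 CPM in the 24 × 32 °C controls and 7.55, 7.30 and 5.73 CPM with LPS, without overlap. It was up-regulated there, with a log2 fold change of 2.46 (5.49-fold, edgeR adjusted p = 0.0142, SE 0.51), from 2 to 4 counts per control and 13 to 19 per LPS library. It passed the low-count filter through these LPS libraries, where it was highest. Its entry into the test was therefore not independent of this change. The call was lost with DESeq2 on the 6 libraries (2.49, adjusted p = 0.0678) and without any 1 of the 3 controls (edgeR adjusted p of up to 0.0700).
At 32 × 24 °C it held 0.287, 0.380 and 0.402 CPM in controls, which is 1 count each, and 0.859, 1.85 and 2.55 CPM with LPS (2.23, edgeR adjusted p = 0.613, SE 0.77). At 24 × 24 °C the ranges overlapped (log2 fold change 0.21, SE 0.40).
mfap4.8 held 5.60, 1.54 and 3.36 CPM in the 24 × 32 °C controls and 19.2, 16.1 and 38.4 CPM with LPS, again without overlap, and its log2 fold change of 2.79 was not called (edgeR adjusted p = 0.0569, SE 0.72), though DESeq2 on the 18 libraries called it (2.81, adjusted p = 0.00193). On average over the combinations, mfap4.8 (1.78, edgeR adjusted p = 0.0219, SE 0.41) and mfap4.11 (1.63, edgeR adjusted p = 0.00606, SE 0.34) were both up-regulated. The mfap4.11 call was lost with thinned counts (edgeR adjusted p = 0.111). That of mfap4.8 was lost under 6 of 23 alternatives, and without the 32 × 24 °C LPS library numbered 2, its highest of that group at 21.5 CPM, the value was 1.29 (edgeR adjusted p = 0.0527). mfap4.4, mfap4.6, mfap4.7, mfap4.9 and mfap4.10 did not pass the filter and held 1 to 63 counts in all.

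**Figure D4:**
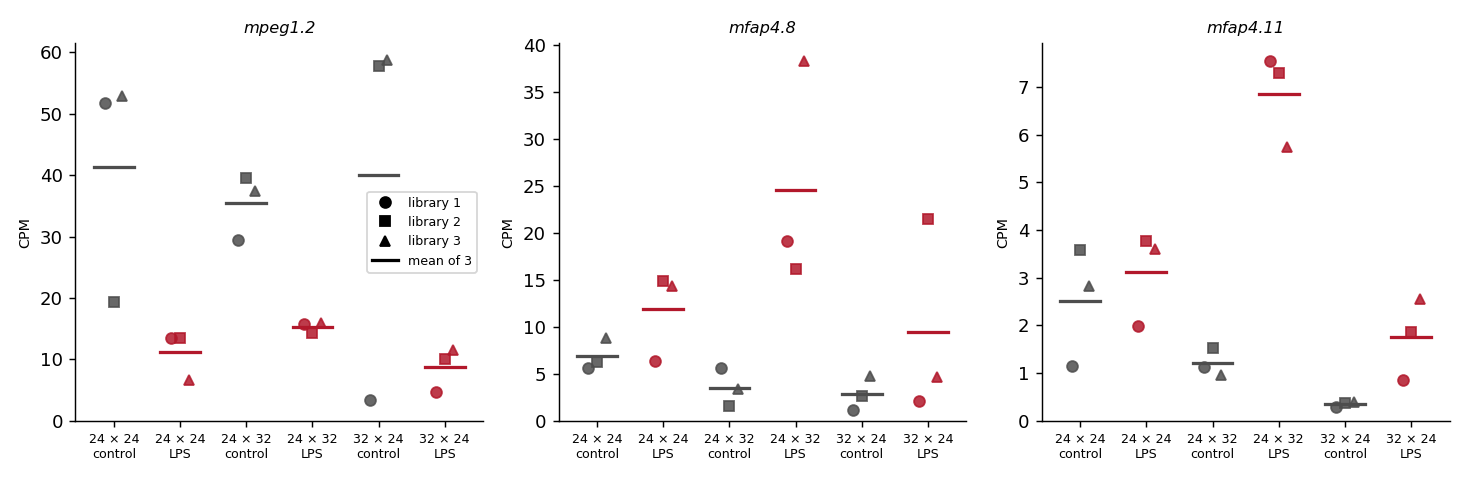
Levels of mpeg1.2, mfap4.8 and mfap4.11 in each of the 18 libraries, in CPM from 0, with control larvae in grey, LPS-challenged larvae in red and a bar at the mean of 3 libraries. mpeg1.2 is lower with LPS in the means of all 3 combinations, and mfap4.8 and mfap4.11 are higher with LPS, without overlap at 24 × 32 °C.

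**Figure D5:**
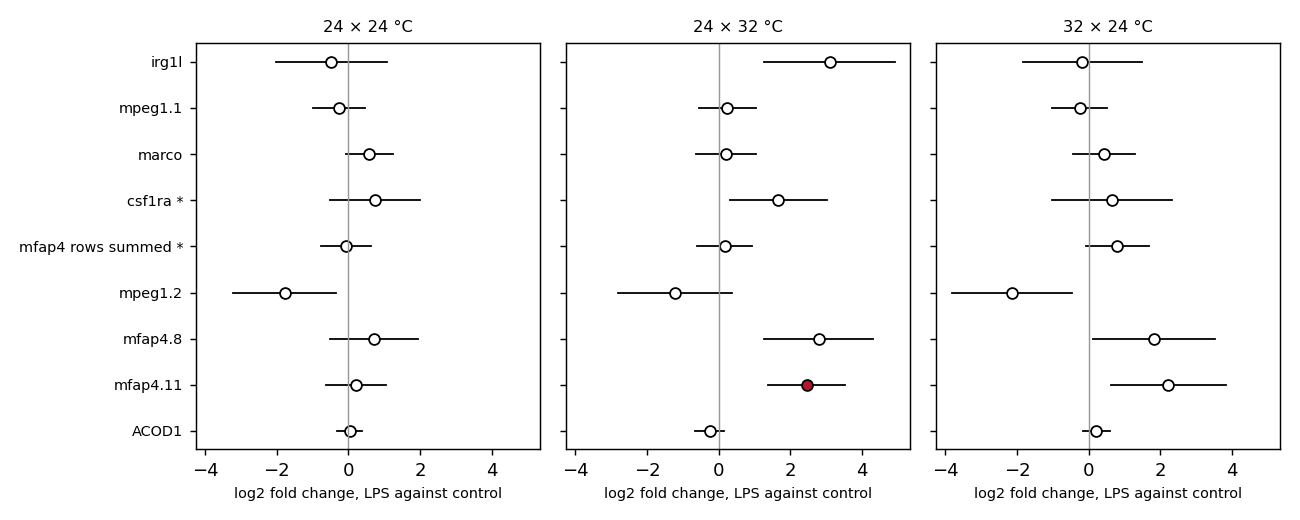
Log2 fold change of LPS against control larvae, with 95% intervals, for the members (an asterisk marks fits without the low-count filter), for the copies mpeg1.2, mfap4.8 and mfap4.11, and for ACOD1, with red fill where the gene was called. Only mfap4.11 at 24 × 32 °C is filled, and the intervals of irg1l, csf1ra and mfap4.8 also lie above 0 in that panel.

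The members were set beside lists of genes of the same cells and pathways, counted over tested genes. Of the 25 other macrophage and microglia genes found in the table, 13 were tested. None was called at 24 × 24 °C, 24 × 32 °C or 32 × 24 °C by edgeR, with medians of -0.07, 0.18 and 0.13 on the log2 scale beside medians of all genes near 0. Averaged over the combinations, 1 rose, the cathepsin S gene ctss2.1 (1.14, edgeR adjusted p = 0.0427, SE 0.31), and 1 fell, mpeg1.2, where 2.51% of all tested genes were called. The ctss2.1 call was lost under 13 of 22 alternatives (adjusted p of up to 0.128). Of 6 tested genes for Csf1 receptor ligands and macrophage transcription factors, none was called, and the values of irf8, which directs macrophage development, were 0.73, 0.80 and 0.71 (edgeR adjusted p of 0.469 to 1.0). The medians of the 6 were lower, at 0.275, 0.16 and 0.0466, with 4, 5 and 4 of them positive. Of 8 tested scavenger receptors none was called either.
Of 16 listed genes of macrophage activation, 14 were found and 7 tested. Of these, 3 rose at 24 × 24 °C, 2 at 24 × 32 °C and 1 at 32 × 24 °C, and none fell, where 0.426%, 1.95% and 0.0318% of all tested genes were called. The matrix metalloproteinase gene mmp9 rose at all 3, by 2.55 (edgeR adjusted p = 0.0281, SE 0.46), 3.19 (edgeR adjusted p = 0.0173, SE 0.60) and 4.31 (edgeR adjusted p = 0.0359, SE 0.63). The prostaglandin synthase gene ptgs2b rose by 3.04 (edgeR adjusted p = 0.0223, SE 0.54) and 3.45 (edgeR adjusted p = 0.0237, SE 0.71) at 24 × 24 °C and 24 × 32 °C. The cytokine gene il1b rose by 3.16 (edgeR adjusted p = 0.0157, SE 0.55) at 24 × 24 °C, and its change at 24 × 32 °C was 2.18 (edgeR adjusted p = 0.156). Because the libraries were of whole larvae, the cells in which these genes rose are not known. The mmp9 call was lost under 9, 2 and 11 of 25 alternatives at the 3 combinations (adjusted p of up to 0.233), that of ptgs2b under 6 and 5 of 25 (up to 0.144) and that of il1b under 5 of 25 (up to 0.118). Neither ptgs2b nor il1b was called at 32 × 24 °C, where 5 of the 7 tested genes had a positive value (median 0.997). In the mean of the 3 combinations, mmp9 (3.35, edgeR adjusted p = 7.76e-05), ptgs2b (3.27, edgeR adjusted p = 0.00023) and il1b (2.98, edgeR adjusted p = 0.00081) all rose. These mean changes were called under each of 23 alternatives.

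Of the genes around irg1l's enzyme, 20 on a list for the tricarboxylic acid cycle were tested. With LPS at 24 × 32 °C, where 1.95% of all tested genes were called, 1 of the list rose. It was idh1 (0.90, edgeR adjusted p = 0.0134, SE 0.19), the gene of a cytosolic isocitrate dehydrogenase, which is not an enzyme of the cycle itself. None was called in the other combinations. Of 21 genes of mitochondrial fatty acid oxidation, 6 rose at 24 × 32 °C and none fell, beside 1.95% called over all tested genes, with a median of 0.46, and none was called at the other combinations (medians of -0.03 at 24 × 24 °C and 0.17 at 32 × 24 °C).
Among the 6 were hadhaa, a subunit of the trifunctional protein (1.18, edgeR adjusted p = 0.00126, SE 0.17), the carnitine carrier gene slc25a20 (0.99, edgeR adjusted p = 0.0154, SE 0.21) and the carnitine palmitoyltransferase gene cpt1ab (0.83, edgeR adjusted p = 0.00792, SE 0.15). The calls of idh1 and slc25a20 were each lost under 4 of 25 alternatives (adjusted p of up to 0.0580 and 0.104). Positive log2 fold changes were found for 9, 19 and 20 of the 21 genes at 24 × 24 °C, 24 × 32 °C and 32 × 24 °C. In the mean of the 3 combinations, 3 of the 21 rose and none fell (median 0.23), beside 2.51% called over all tested genes. They were cpt1b (0.68, edgeR adjusted p = 0.0179), cpt1ab (0.65, edgeR adjusted p = 0.00012) and hadhaa (0.64, edgeR adjusted p = 0.00023). The controls differed as well. In 24 × 32 °C against 24 × 24 °C control larvae, 10 of the 21 genes were lower and none higher, beside 6.21% called over all tested genes, with a median of -0.54. Between LPS larvae of these combinations, 2 of the 21 were lower at 24 × 32 °C and none higher (median -0.21), beside 3.09% called over all tested genes. The 24 × 32 °C controls enter both the LPS comparison and that of the controls. Of 14 tested genes of known Irg1 regulators and of the glucocorticoid response, none was called in a single combination. Averaged over the combinations, where 2.51% of all tested genes were called, 1 rose, the transcription factor gene cebpb (1.37, edgeR adjusted p = 0.00956, SE 0.26).

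Marker genes of other cells moved in some of the same comparisons, and their part in the values of irg1l was not tested. Unless another comparison is named, the called genes below are for LPS at 24 × 32 °C, where 1.95% of all tested genes were called. At 24 × 32 °C, the summed level of 17 genes of all leukocytes was 105 to 120 CPM in controls and 139 to 157 CPM with LPS, and 1 of 13 tested was called, cyba (1.24, edgeR adjusted p = 0.0266, SE 0.29), a subunit of the NADPH oxidase, whose call was lost under 5 of 25 alternatives (adjusted p of up to 0.114). The sum includes cyba, which had a mean of 24.7 CPM over the 18 libraries. Of the 13, 10 had a positive log2 fold change (median 0.25). The 25 macrophage genes summed to 336 to 354 CPM in controls and 360 to 459 CPM with LPS. The 9 neutrophil genes overlapped (329 to 751 CPM in controls, 384 to 669 CPM with LPS), and 1 of 7 tested was called, scpp8 (5.59, edgeR adjusted p = 0.00167, SE 0.78). Of the 7, 4 had a positive log2 fold change (median 0.14). scpp8 was also called at 24 × 24 °C (4.28, edgeR adjusted p = 0.00239), beside 0.426% of all tested genes. In the mean of the 3 combinations, where 2.51% were called, scpp8 (4.47) and srgn (1.06) rose and lyz (-1.16, edgeR adjusted p = 0.00428) fell. The macrophage sum was lower with LPS at 24 × 24 °C, with 377 to 413 CPM in controls and 308 to 369 CPM with LPS. The macrophage sums include mpeg1.2, whose mean at 24 × 24 °C was 41.35 CPM in controls and 11.21 CPM with LPS. At 32 × 24 °C the macrophage sum overlapped (191 to 425 CPM in controls, 224 to 405 CPM with LPS). The leukocyte and neutrophil sums overlapped at these other combinations.
At 24 × 32 °C, the 13 keratinocyte genes summed to 13840 to 19610 CPM in controls and 7724 to 11210 CPM with LPS. Abundant genes such as krt5 (mean 2978 CPM) weigh heavily in this sum, and 7 of the 13 genes had a positive log2 fold change (median 0.30). Of the 13, the claudin gene cldne rose (2.30, edgeR adjusted p = 0.0125, SE 0.41). The keratin gene krt5 (-1.62, edgeR adjusted p = 0.0258, SE 0.34) and icn2 (-1.06, edgeR adjusted p = 0.0172, SE 0.22) fell. The calls of cldne, krt5 and icn2 were lost under 2, 5 and 3 of 25 alternatives. The 7 xanthophore genes, the other cells that use csf1ra, summed to 107 to 124 CPM in controls and 76.3 to 118 CPM with LPS, and none was called. No gene of these lists was without a count over the 18 libraries. The keratinocyte sum was also lower with LPS at 32 × 24 °C (11580 to 14560 CPM in controls, 7477 to 10430 CPM with LPS). At 24 × 24 °C its ranges overlapped (9506 to 12330 CPM in controls, 4477 to 9861 CPM with LPS).
The 32 × 24 °C control numbered 1, the lowest of its group in irg1l and mpeg1.2, summed to 191 CPM for the macrophage, 87.4 CPM for the leukocyte and 118 CPM for the neutrophil genes, below the 330 and 425, 178 and 169, and 277 and 292 CPM of its other controls. The 32 × 24 °C LPS library numbered 1, also the lowest of its group in irg1l and mpeg1.2, summed to 224, 105 and 101 CPM for the same lists, below the 405 and 334, 168 and 171, and 366 and 275 CPM of the other LPS libraries there. The 24 × 24 °C control numbered 2, low in irg1l (37.1 CPM), held 379 CPM of the macrophage genes, between the 377 and 413 CPM of its group.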

How the data were processed

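RNA of pooled whole larvae was sequenced as 18 libraries (6 groups of 3). Per the study's methods and notes, the authors used cutadapt 1.12 for trimming, TopHat2 2.1.0 for alignment (genome GRCz10) and HTSeq 0.6.1p1 for counting. They deposited raw counts per Ensembl gene, not normalized. For the strand setting of the counting, nothing was given in the sources used here.

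Names came from the study's gene tables (1458 genes) and a gene table (24757), and 5409 genes had none. Of 187 list entries, 163 matched a row. Neighbours came from RefSeq's gene order, on another build than the counts, so no coordinates are given.

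Tests were run with edgeR 4.0.16 under R 4.3.3 (filterByExpr with minimum count 10 and minimum total 15, which kept 15722 genes, TMM, robust quasi-likelihood, 18 libraries in 1 fit) and DESeq2 1.42.0 as an alternative. log2 CPM had a prior count of 2. The procedure was tested on simulated data. Members and lists were chosen with earlier results of these data known. Named genes were the members, their copies, up to 4 called or else up to 2 members of each list per LPS comparison (mean level 1 CPM or more), and the 5 (irg1l) or 3 genes most alike. Not every gene meeting the rule is printed. ACOD1, glod5, rlim and the controls' contrasts of named genes were added after seeing values. Alternatives tried were leaving out each library, DESeq2, its size factors in edgeR, a fit of only those libraries compared, omission of the filter, thinning of all counts to the smallest total (seed 20), and a replicate block. The sum of the mfap4 rows and the removal of both 32 × 24 °C libraries numbered 1 were chosen after seeing the data. Low counts limit csf1ra, mfap4, mpeg1.1 and marco.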

Additional observations from a re-analysis of the deposited data

How the results depend on the processing

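The 48 main results were levels of the members and fits of irg1l, mpeg1.1 and marco. None of these comparisons was called in the main fit, so no call could be lost. A level counted as unchanged when its mean moved by less than its SD. Leaving out a library of its group cannot move it further, so those settings decide nothing. Of 572 settings, 547 left the result as it was, 12 gained a call and 13 turned the sign of a value that was not called. These gains were all for irg1l. For LPS at 24 × 32 °C they came with DESeq2 (3.10 on 18 libraries, 3.10 on 6), with edgeR on the 6 libraries (3.10), and without the 32 × 24 °C control (3.10) or both 32 × 24 °C libraries (3.10) numbered 1. For controls at 24 × 32 °C against 24 × 24 °C they came with DESeq2 (-2.84 on 18 libraries, -2.85 on 6), without the 24 × 24 °C control numbered 2 (-3.29), and without the 32 × 24 °C control numbered 1 (-2.84) or both libraries (-2.84). DESeq2 on only the libraries compared also called the challenge difference in LPS effects (3.58) and the LPS larvae (0.72). Counts thinned to the smallest library turned the LPS changes of mpeg1.1 at 24 × 24 °C (0.73) and in the mean (0.29) and of marco at 24 × 32 °C (-0.0591) and 32 × 24 °C (-0.0492). The cause was not tested.

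Leaving out 1 library moved irg1l between 2.84 and 3.29 for LPS at 24 × 32 °C, -0.74 and 0.58 at 32 × 24 °C, and -3.29 and -2.41 for the controls, and its difference in LPS effects between incubations between -0.27 and 1.05. It moved mpeg1.1 between -0.0881 and 0.45 at 24 × 32 °C, -0.63 and 0.10 at 32 × 24 °C, and -0.22 and 0.0233 in the mean, and marco between -0.11 and 0.42 at 24 × 32 °C. Signs also turned for ACOD1 at 24 × 24 °C (-0.0376 to 0.13), mfap4.11 at 24 × 24 °C (-0.0863 to 0.53) and the mfap4 sum at 24 × 24 °C (-0.33 to 0.0694) and 24 × 32 °C (-0.15 to 0.53).

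csf1ra, fitted without the filter and counted below, moved between 0.45 and 2.22 at 24 × 32 °C. Of 74 other results, 199 of 1779 settings lost a call, 38 gained one and 9 turned the sign. Counts of called genes over the settings and over libraries left out ran from 33 to 337 and 18 to 140 for LPS at 24 × 24 °C (67), 237 to 462 and 93 to 455 at 24 × 32 °C (307), 1 to 58 and 0 to 31 at 32 × 24 °C (5), 646 to 1616 and 400 to 1199 for the 24 × 32 °C controls (976), 60 to 205 and 12 to 138 for the 32 × 24 °C controls (77), and 0 to 102 and 0 to 2 for the challenge difference (1).

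Whether replicate numbers pair the libraries of the whole series was not settled. Of 18 libraries, 10 correlated best with their own number among those of the other treatment at their combination. Over the series, the median was 0.0175 for same-numbered pairs and -0.0138 for other pairs. Of 45 same-numbered pairs 17 exceeded 0.1, beside 15 of 90 other pairs. Of the 9 same-numbered pairs of LPS and control at one combination, 6 did (median 0.16), among them all 3 at 32 × 24 °C (0.559, 0.28 and 0.195), where the block changed no call of a named gene and gave irg1l a value of -0.11. A replicate block changed the call of 3 of 71 other results and of none of the 18 of the members (irg1l at 24 × 32 °C is among them).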
